A study of Homo sapiens with 24 samples.

Results

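The ID and SMAD feedback genes are genes that cells switch on, or release as signals, when transforming growth factor beta (TGF-beta), activin or bone morphogenetic protein (BMP) signals reach them. All 10 members (ID1, ID2, ID3, ID4, SMAD6, SMAD7, BAMBI, SKIL, INHBA and BMP4) were found by gene name among the 58735 genes measured, all are protein-coding, and all 10 passed the filter on low counts that kept 19210 genes. They were followed in Ovcar8, a human cell line of high grade serous ovarian cancer, in 24 polyA RNA libraries that formed 8 groups of 3. Cells of every group were held in ultra-low attachment plates, which keep cells from sticking to the surface, with conditioned medium and RPMI medium with 5% serum in equal parts. The groups were fresh medium, medium from proliferating cells given vehicle (proliferative medium), medium from cells made senescent by cisplatin (senescent medium), boiled senescent medium, the fraction of senescent medium below 3 kDa (small fraction), the fraction above 3 kDa (large fraction), and cells pre-treated with proliferative or with senescent medium. What followed the pre-treatment, how long each exposure lasted, and how fresh medium was combined with the 1 to 1 mixture are not given in the labels. Only 1 cell line was used, and nothing says that the 3 libraries of a group came from separate cultures, so p values measure only the spread between these libraries.

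As background, TGF-beta and activin ligands signal through receptor kinases to SMAD2 and SMAD3, and BMP ligands signal through related receptors to SMAD1, SMAD5 and SMAD9, and both branches share SMAD4. ID proteins lack a DNA-binding region and hold basic helix-loop-helix transcription factors in inactive pairs, and ID1, ID3 and SMAD6 are widely used as readouts of BMP signalling. SMAD6 and SMAD7 block the receptors from inside the cell, BAMBI is a decoy receptor without a kinase, and SKIL, also known as SnoN, holds SMAD complexes in a repressed state. INHBA encodes the subunit of activin A, and BMP4 encodes a BMP ligand.

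ID1, ID3 and SMAD6 carried most of the differences described here, so the 250 bases just before the transcription start of each are shown from RefSeq (GRCh38.p14). Capitals mark a match to GTCTAGAC, a palindromic SMAD-binding element that reads the same on both strands.
ID1 promoter, chr20:31605039-31605288, plus strand: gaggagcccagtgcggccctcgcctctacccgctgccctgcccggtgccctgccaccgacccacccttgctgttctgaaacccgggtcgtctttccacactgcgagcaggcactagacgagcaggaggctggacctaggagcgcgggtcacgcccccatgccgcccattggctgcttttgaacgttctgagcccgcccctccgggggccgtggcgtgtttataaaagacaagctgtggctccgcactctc
ID3 promoter, chr1:23559502-23559751, minus strand: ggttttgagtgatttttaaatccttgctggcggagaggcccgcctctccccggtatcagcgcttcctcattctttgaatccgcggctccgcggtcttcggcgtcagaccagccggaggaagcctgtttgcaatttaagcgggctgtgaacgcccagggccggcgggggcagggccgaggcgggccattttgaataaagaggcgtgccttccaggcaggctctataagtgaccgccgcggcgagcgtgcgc
SMAD6 promoter, chr15:66701986-66702235, plus strand: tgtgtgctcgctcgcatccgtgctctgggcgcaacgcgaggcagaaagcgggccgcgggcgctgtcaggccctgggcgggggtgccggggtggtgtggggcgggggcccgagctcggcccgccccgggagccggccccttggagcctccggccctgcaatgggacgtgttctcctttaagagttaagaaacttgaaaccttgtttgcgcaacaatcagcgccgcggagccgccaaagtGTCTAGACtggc
The SMAD6 window held the only GTCTAGAC among the members, 12 to 5 bases before the start, and this motif was present in 64 of 35116 human promoter windows of the same length (0.182%). GGCGCC, the core of a GC-rich BMP-responsive element and likewise its own reverse complement, was absent from these 3 windows. It was present in the windows of BAMBI and SKIL, in only 1 of the windows of BMP4, and in 16.4% of all windows. A cyclic AMP response element, TGACGTCA, also a palindrome, was found in the SKIL window and in 1.65% of all windows. The 10 members had 14 windows in all, and a match is a description of letters, not a measured binding site.

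Levels below are CPM, read counts scaled to a common library size with TMM factors, and they compare groups within 1 gene. Levels of different genes are compared only as FPKM, which also divide by gene length. By mean FPKM over all libraries the most abundant member was ID1 (97.6), followed by ID3 (14.9), SKIL (14.9), INHBA (12.2), SMAD7 (4.27), BAMBI (2.28), SMAD6 (1.42) and BMP4 (0.736). ID4 (0.205) and ID2 (0.168) were close to the detection limit. Differences are log2 fold changes ± standard error (SE) from edgeR's quasi-likelihood test on the deposited counts, with Benjamini-Hochberg adjustment over all 19210 genes and a threshold of 0.05.

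The libraries held 14718120 to 21956598 counts each, and mitochondrial transcripts took 4.09% to 6.85% of them. The serous ovarian markers PAX8 (148 to 302 CPM), MSLN, KRT7, KRT8, KRT18 and EPCAM were present in every library. By contrast, MUC16 (at most 0.419 CPM), SOX17 (at most 0.366), MECOM (at most 0.0594) and CDH1 (at most 1.15) were at or near 0. The serous markers WT1 (0.801 to 2.52 CPM) and CDH6 (at most 4.06) were low as well. Summed leukocyte markers ran from 3.12 to 5.14 CPM in fresh medium and reached 9.20 in boiled medium, with PTPRC at most 0.123, and summed endothelial markers ran from 1.46 to 2.20 CPM in fresh medium and from 3.69 to 9.88 elsewhere. Of the stromal list, COL1A1 alone was high (1146 to 2157 CPM). LUM (0.951 to 5.46 CPM), ACTA2 (1.41 to 4.24) and UPK3B (0.320 to 2.17) were low but detected in every library. PDGFRA, COL1A2 and DCN stayed at or below 0.462, 0.260 and 0.0617. The part of these markers in the results was not tested, and in bulk RNA fewer cells of a type and less RNA per cell cannot be told apart. Senescent library 3 and library 1 of pre-treatment with proliferative medium deviated most from their group means, and calls that change without either are given beside the results.

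ID3 (ENSG00000117318, chr1:23557918-23559794, minus strand), a dominant-negative partner of E proteins, was lower in all 7 other media than in fresh medium. The fresh libraries held 43.1, 39.6 and 40.1 CPM, and the highest library of any other group held 35.0 CPM. Proliferative medium held 19.8, 19.7 and 20.2 CPM, and the large fraction held 18.0, 17.6 and 18.9 CPM, the lowest group. Senescent medium (23.4, 24.6 and 20.8 CPM), boiled medium (23.9, 23.7 and 28.6) and the small fraction (30.4, 25.9 and 24.5) lay between, with overlapping ranges. Cells pre-treated with proliferative medium (31.1, 29.6 and 27.9 CPM) or senescent medium (30.9, 30.2 and 35.0) were nearest to fresh medium. Against fresh medium ID3 fell by 1.17 ± 0.09 in the large fraction (adjusted p = 1.85e-14), by 1.04 ± 0.09 in proliferative medium (adjusted p = 4.89e-13), by 0.84 ± 0.09 in senescent medium (adjusted p = 3.31e-10), by 0.68 ± 0.09 in boiled medium, by 0.61 ± 0.09 in the small fraction, by 0.47 ± 0.09 after pre-treatment with proliferative medium and by 0.35 ± 0.09 after pre-treatment with senescent medium (adjusted p = 0.00127, the smallest of the 7 falls). These 7 comparisons share the same 3 fresh libraries.

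**Figure D1:**
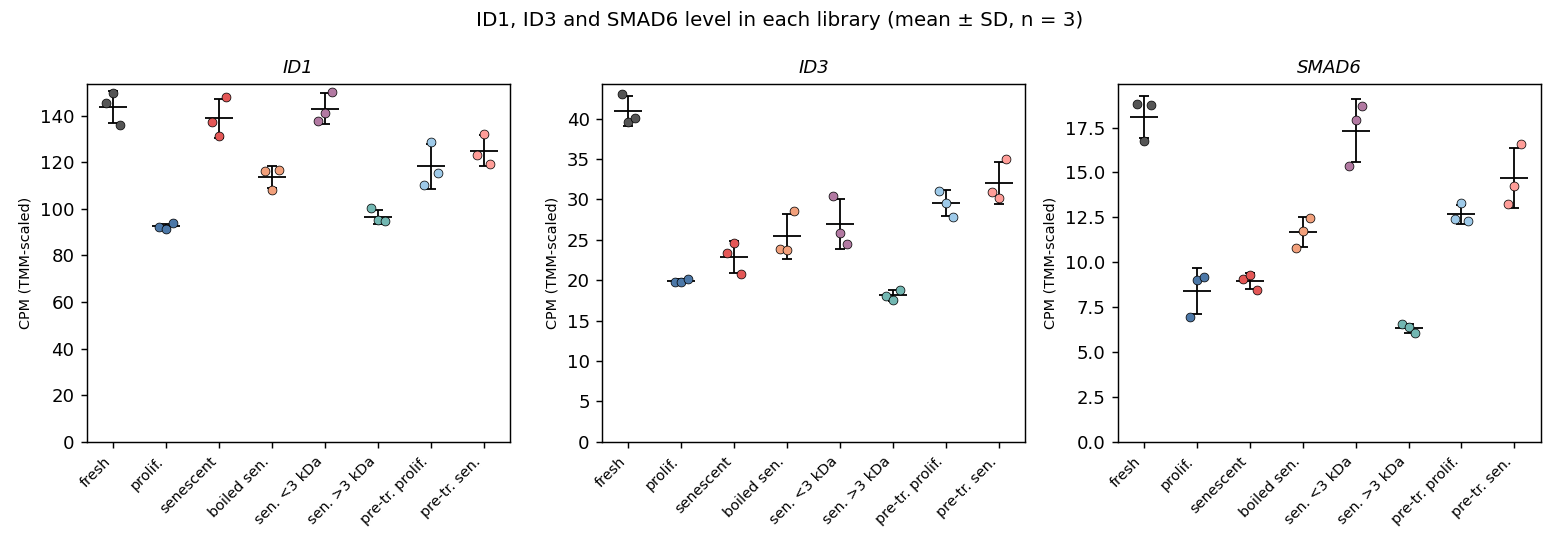
ID1, ID3 and SMAD6 in TMM-scaled CPM (vertical axes, starting at 0) in each of the 24 libraries by medium; points are libraries, bars are the mean ± SD of 3. ID3 was highest in fresh medium (39.6 to 43.1), while ID1 in senescent medium (131 to 148) and in the small fraction (138 to 150) overlapped with fresh medium (136 to 150).

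SMAD6 (ENSG00000137834, chr15:66702228-66782848, plus strand), the inhibitory SMAD that mainly restrains the BMP branch, was also lower than in fresh medium in 6 of 7 media, the small fraction being the exception. It measured 18.8, 16.7 and 18.7 CPM in fresh medium and 15.3, 17.9 and 18.7 CPM in the small fraction, and these ranges overlapped (-0.06 ± 0.11, adjusted p = 0.675). The large fraction was lowest at 6.54, 6.40 and 6.05 CPM, below every other library. Proliferative medium gave 6.93, 9.03 and 9.20 CPM and senescent medium 9.06, 9.30 and 8.43 CPM, and these ranges overlapped. Boiled medium was higher than both, at 10.8, 11.7 and 12.5 CPM. Pre-treatment with proliferative medium (12.4, 13.3 and 12.3 CPM) or senescent medium (13.3, 14.2 and 16.6 CPM) gave levels between those of boiled and fresh medium. Against fresh medium SMAD6 fell by 1.52 ± 0.12 in the large fraction (adjusted p = 7.11e-14), by 1.12 ± 0.12 in proliferative medium (adjusted p = 1.54e-10) and by 1.02 ± 0.12 in senescent medium (adjusted p = 2.98e-09). It fell by 0.63 ± 0.11 in boiled medium and by 0.52 ± 0.11 after pre-treatment with proliferative medium. The small fall after pre-treatment with senescent medium (-0.30 ± 0.11, adjusted p = 0.0349) did not keep its call when fresh library 1 (adjusted p = 0.109) or 3 (0.106), or pre-treated senescent library 1 (0.161) or 2 (0.099), was left out. It was also lost with library totals (0.0505), with no filter on low counts (0.0698) and by limma on log2(FPKM + 0.1) (0.0694).

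ID1 (ENSG00000125968, chr20:31605283-31606515, plus strand), the most abundant member and a negative regulator of differentiation, took another order. It measured 145, 150 and 136 CPM in fresh medium, 137, 131 and 148 CPM in senescent medium and 138, 141 and 150 CPM in the small fraction. Those 3 groups overlapped, and neither senescent medium (-0.05 ± 0.05, adjusted p = 0.524) nor the small fraction (-0.01 ± 0.05, adjusted p = 0.937) differed from fresh medium by the test. Proliferative medium was lowest at 92.2, 91.3 and 93.8 CPM, next to the large fraction at 100, 95.0 and 94.7 CPM. Boiled medium gave 116, 108 and 116 CPM, and pre-treatment gave 110, 129 and 115 CPM with proliferative and 123, 132 and 119 CPM with senescent medium. The means of these 3 groups lay between those of the low and the high groups. Pre-treatment with proliferative medium overlapped with boiled medium and with pre-treatment with senescent medium. The latter (at most 132) also overlapped with senescent medium (at least 131). Boiled medium (at least 108) did not overlap with the large fraction (at most 100). Compared with fresh medium ID1 fell by 0.64 ± 0.06 in proliferative medium (adjusted p = 7.8e-13), by 0.57 ± 0.06 in the large fraction (adjusted p = 2.44e-11) and by 0.34 ± 0.05 in boiled medium (adjusted p = 3.66e-06). It fell by 0.28 ± 0.05 after pre-treatment with proliferative medium and by 0.20 ± 0.05 with senescent medium (adjusted p = 0.00374).

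Against fresh medium, 3 of the 10 members passed the threshold in proliferative medium, all lower, beside 42.2% of all genes tested. In senescent medium it was 2 of 10, both lower, beside 33.6%, and in the large fraction 3 of 10, all lower, beside 26.9%. Boiled medium gave 5 of 10 (2 higher and 3 lower) beside 27.9%, and the small fraction 3 of 10 (2 higher and 1 lower) beside 44.6%. Pre-treatment with proliferative and with senescent medium each gave 3 of 10, all lower, beside 31.8% and 30.2%. The share of members called was near or below that of all genes, except in boiled medium. Median log2 fold changes of the 10 members ran from -0.32 in the large fraction to 0.04 in the small fraction, and the medians of all genes from -0.01 to 0.01. The plot of log2 fold changes against fresh medium shows ID1, ID3 and SMAD6 to the left of 0 wherever they were called.

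**Figure D2:**
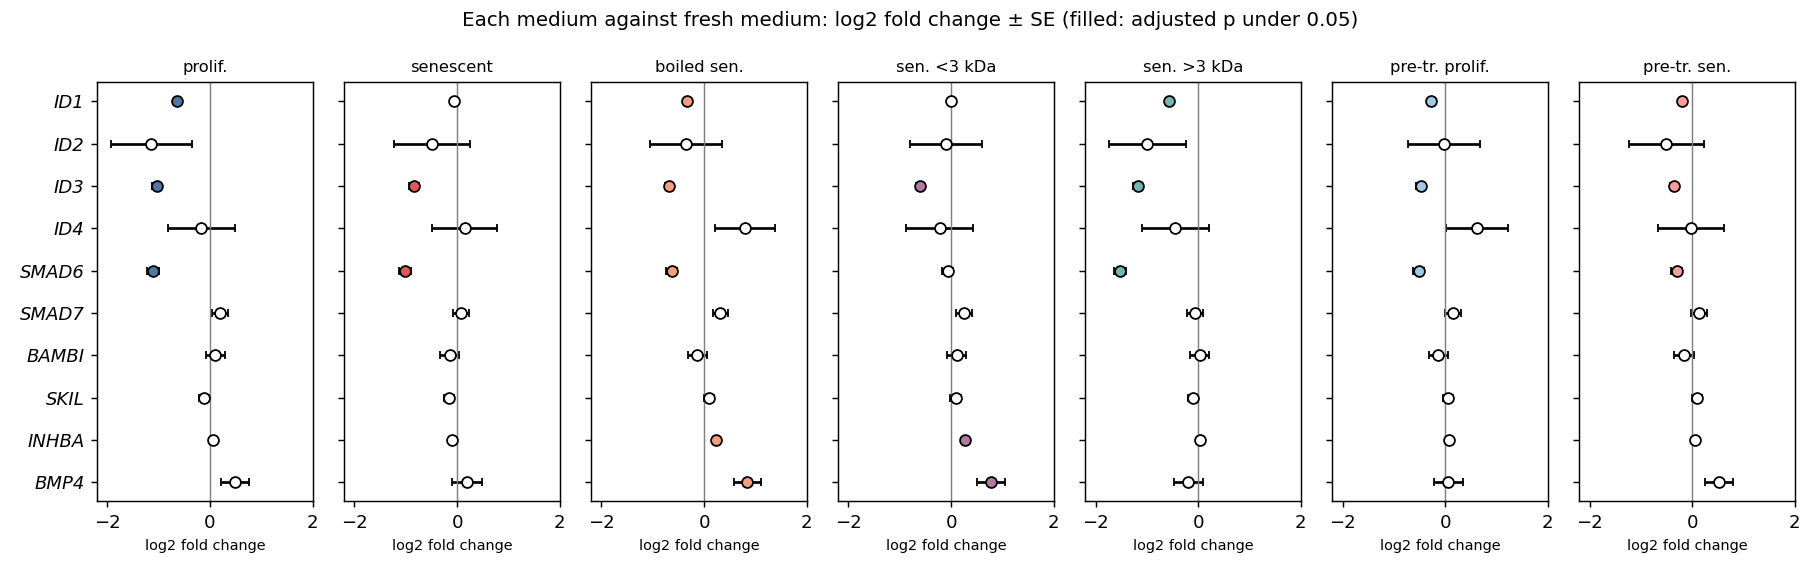
Log2 fold change ± SE (horizontal axes) of the 10 members in each medium against fresh medium, 3 libraries per group; filled points have an adjusted p under 0.05. ID3 is filled in all 7 panels, SMAD6 in 6 and ID1 in 5, INHBA and BMP4 are filled to the right in boiled medium and the small fraction, and ID2, ID4, SMAD7, BAMBI and SKIL are never filled.

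Between senescent and proliferative medium ID1 had the largest difference of any member called. It was 0.59 ± 0.06 higher in senescent medium (adjusted p = 2.93e-11), with all 3 senescent libraries above all 3 proliferative ones. ID3 (0.20 ± 0.09, adjusted p = 0.103) and SMAD6 (0.09 ± 0.13, adjusted p = 0.626) were not called, although ID3 was called without senescent library 3 (0.27, adjusted p = 0.047). INHBA was slightly lower (-0.15 ± 0.05, adjusted p = 0.0298), but this call was lost without proliferative library 1 (adjusted p = 0.111) or 2 (0.0536), without senescent library 3 (0.117) or with low-count genes kept (0.0501). These were 2 of 10 members, beside 29.0% of all genes.

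Boiled and fractionated senescent medium were also compared with the intact medium. Compared with intact senescent medium, boiled medium had less ID1 (-0.29 ± 0.05, adjusted p = 6.82e-05) and more SMAD6 (0.39 ± 0.12, adjusted p = 0.0144). ID3 differed by 0.16 ± 0.09 and was not called (adjusted p = 0.223). The SMAD6 call was lost without senescent library 3 (adjusted p = 0.0574) or boiled library 3 (0.0742). INHBA rose as well (0.32 ± 0.05, adjusted p = 5.46e-06), so 3 of 10 members were called beside 25.9% of all genes. In the small fraction SMAD6 was 0.96 ± 0.12 higher than in senescent medium (adjusted p = 6.04e-09) and ID1 differed by 0.04 ± 0.05 (adjusted p = 0.555). ID3 was called there too (0.23 ± 0.09, adjusted p = 0.0367), although its ranges overlapped and the call was lost without senescent library 1 (adjusted p = 0.0588) or 3 (0.196) or small fraction library 1 (0.269), with no filter (0.0598) or with only the groups compared (0.103). With INHBA (0.37 ± 0.05, adjusted p = 1.26e-07), 3 of 10 were called beside 42.6%.

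The large fraction had less ID1, ID3 and SMAD6 than senescent medium. ID1 fell by 0.52 ± 0.06 (adjusted p = 1.2e-09), SMAD6 by 0.50 ± 0.13 (adjusted p = 0.00496) and ID3 by 0.34 ± 0.09 (adjusted p = 0.00847, and 0.0678 without senescent library 2). These were the 3 of 10 members called, beside 18.1% of all genes. Between the fractions themselves all 10 log2 fold changes were positive for small against large, and 5 were called, beside 35.0% of all genes. SMAD6 was 1.45 ± 0.12 higher in the small fraction (adjusted p = 1.55e-13), ID1 0.57 ± 0.05 (adjusted p = 1.75e-11) and ID3 0.57 ± 0.09 (adjusted p = 2.37e-06). BMP4 was 0.97 ± 0.27 higher (adjusted p = 0.00388) and INHBA 0.24 ± 0.05 (adjusted p = 0.000197). The median over the 10 members was 0.44, and that of all genes was 0.01.

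No member was called between pre-treatment with senescent and with proliferative medium. By edgeR 0 of 10 were called and 0 had an unadjusted p under 0.05, DESeq2 also called 0, and 0.890% of all genes were called. ID1, which differed by 0.59 between these media on direct exposure, differed by 0.08 ± 0.06 after pre-treatment (adjusted p = 0.743), and the difference of the differences was -0.51 ± 0.08 (adjusted p = 7.18e-06). It was the only member called in that interaction, beside 13.8% of all genes. For ID3 (-0.08 ± 0.13, adjusted p = 0.749) and SMAD6 (0.12 ± 0.17, adjusted p = 0.723) the interaction was not called.

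Cells pre-treated with proliferative medium had more ID1, ID3 and SMAD6 than cells given it directly. ID1 was 0.36 ± 0.06 higher (adjusted p = 4.15e-06), ID3 0.57 ± 0.09 (adjusted p = 6.01e-06) and SMAD6 0.60 ± 0.12 (adjusted p = 0.000191). These 3 of 10 were the members called, beside 26.4% of all genes. For senescent medium the 3 genes split, and pre-treated cells had more ID3 (0.49 ± 0.09, adjusted p = 2.42e-05) and SMAD6 (0.72 ± 0.12, adjusted p = 4.07e-06) but less ID1 (-0.15 ± 0.05, adjusted p = 0.0228). The ID1 ranges overlapped, and the call was lost without senescent library 3 (adjusted p = 0.164) or pre-treated senescent library 1 (0.0668) or 3 (0.114). INHBA was 0.16 ± 0.05 higher (adjusted p = 0.0138; 0.062 without senescent library 3 and 0.234 without pre-treated senescent library 1). That made 4 of 10 beside 42.1% of all genes.

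The balance of ID1, ID3 and SMAD6 was followed as ratios of FPKM within each library, a description chosen after the values were seen and given with no test. ID1 over SMAD6 was 55.4 ± 6.07 (SD, n = 3) in fresh medium and 57.6 ± 4.05 in the small fraction. It was 108 ± 12.2 in senescent medium and 106 ± 2.81 in the large fraction, and every library of those groups, at 98.0 or more, lay above every library of the other 6 groups. Proliferative medium lay between, at 77.8 ± 12.6. ID1 over ID3 was 5.13 ± 0.336 in fresh medium, 6.77 ± 0.0202 in proliferative medium and 8.91 ± 1.34 in senescent medium, where library 3 was highest at 10.4 and the other libraries were at 8.57 and 7.78. ID3 over SMAD6 had group means between 10.4 and 13.7 in 7 groups and was lowest in the small fraction at 7.53 ± 1.70.

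**Figure D3:**
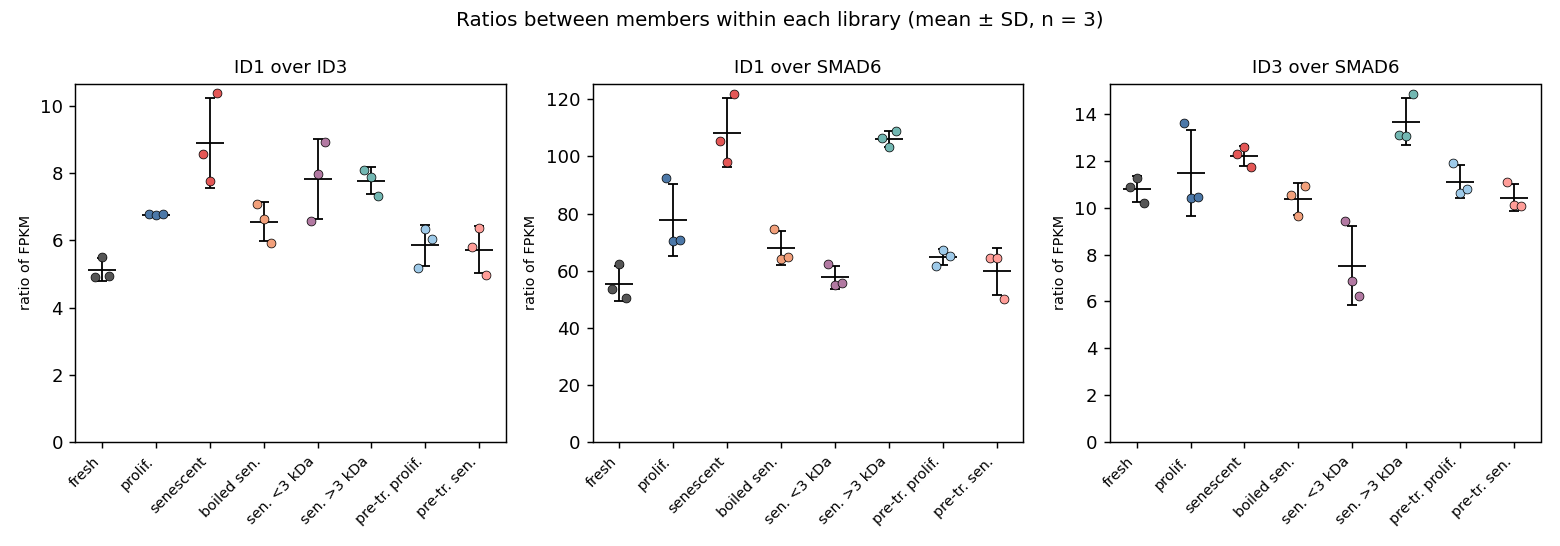
Ratios of FPKM between ID1, ID3 and SMAD6 within each library, by medium; points are libraries, bars are the mean ± SD of 3. ID1 over SMAD6 stands at 98.0 to 122 in senescent medium and 103 to 109 in the large fraction, against 50.4 to 62.2 in fresh medium and 54.8 to 62.3 in the small fraction.

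ID2 (ENSG00000115738, chr2:8678845-8684453, plus strand) and ID4 (ENSG00000172201, chr6:19837386-19840684, plus strand), the other ID family members, were barely expressed. ID2 had 0 to 14 counts per library and group means of 0.216 to 0.504 CPM, and ID4 had 2 to 18 counts and group means of 0.316 to 0.777 CPM. Every group overlapped with its neighbour in the order of levels for both genes. Neither was called in any of the 15 comparisons between media, with lowest adjusted p values of 0.252 and 0.34. Their log2 standard errors in these comparisons ran from 0.59 to 0.84, so changes of the size seen in ID1 were not detectable at this depth. An antisense gene at the ID4 locus averaged 0.152 CPM beside 0.485 for ID4, and no source used here says whether reads were counted by strand.

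The feedback inhibitors SMAD7, BAMBI and SKIL passed the threshold in no comparison, SMAD7 and SKIL with near misses. SMAD7 (ENSG00000101665, chr18:48919853-48952052, minus strand), which recruits ubiquitin ligases to TGF-beta receptors, ran from a group mean of 18.9 ± 2.93 CPM in the large fraction to 24.5 ± 2.55 CPM in boiled medium. Fresh medium gave 16.7, 21.2 and 21.2 CPM, proliferative medium 22.8, 22.7 and 22.0 CPM and senescent medium 22.1, 23.0 and 17.4 CPM. Its widest group was pre-treatment with proliferative medium, at 27.7, 16.5 and 21.5 CPM, which hold both the highest and the lowest library of the gene. SMAD7 was called in none of the 15 comparisons (lowest adjusted p = 0.11, with 2 unadjusted p values under 0.05). Other settings called it higher than in fresh medium in boiled medium (adjusted p = 0.00722 when low-count genes were kept, 0.00831 with only the groups compared, 0.0423 without library 1 and 0.0482 without library 2 of pre-treatment with proliferative medium) and in the small fraction (0.0416 with no filter). For small against large fraction it was called without either of those libraries (0.0352 and 0.0401), without large fraction library 3 (0.0312), with no filter (0.0112), with only the groups compared (0.0333) and with library totals (0.0462). SMAD6, the other inhibitory SMAD, was called in 6 of 7 comparisons with fresh medium, in the other direction.

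BAMBI (ENSG00000095739, chr10:28677342-28682939, plus strand), the decoy receptor, had group means that ran from 4.90 ± 0.547 CPM after pre-treatment with senescent medium to 5.91 ± 1.02 CPM in the small fraction, all neighbours overlapped, and no comparison was called (lowest adjusted p = 0.28). Its largest log2 fold change of any size in the 15 comparisons was 0.26. SKIL (ENSG00000136603, chr3:170357678-170396835, plus strand) ran from 105 ± 14.8 CPM in senescent medium to 125 ± 4.10 CPM in boiled medium. The senescent mean rested on library 3, at 122 CPM beside 96.0 and 97.0 CPM in the other libraries. SKIL was called in no comparison, with a lowest adjusted p of 0.0515 for pre-treated against direct senescent medium (0.25 ± 0.10). That difference was called under all 8 other settings tried, with adjusted p values from 0.000275 (no filter on low counts) to 0.0448, so it lay at the edge of the threshold. SKIL against senescent medium was also called by DESeq2 in boiled medium (adjusted p = 0.0143) and the small fraction (0.0137). Without senescent library 3, SKIL was called higher than in senescent medium in boiled medium (adjusted p = 0.00385), the small fraction (0.00287) and pre-treatment with senescent medium (0.00238), and fresh medium was called higher as well (senescent against fresh -0.28, adjusted p = 0.024). Without library 1 of pre-treatment with proliferative medium the first 3 were called too (0.0357, 0.0299 and 0.0253).

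Both ligand genes were highest in boiled medium and the small fraction. INHBA (ENSG00000122641, chr7:41667168-41705834, minus strand), the activin A subunit, measured 95.6, 94.1 and 99.9 CPM in fresh medium, 111, 116 and 112 CPM in boiled medium and 116, 113 and 122 CPM in the small fraction. All 6 libraries of the latter groups lay above the fresh libraries. Senescent medium was lowest at 91.6, 91.9 and 87.6 CPM, while proliferative medium, the large fraction and both pre-treatments had group means between 98.8 and 101 CPM. Against fresh medium INHBA was 0.23 ± 0.05 higher in boiled medium (adjusted p = 0.000664) and 0.28 ± 0.05 higher in the small fraction (adjusted p = 2.31e-05). Its antisense gene INHBA-AS1 averaged 2.34 CPM beside 102 CPM for INHBA.

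BMP4 (ENSG00000125378, chr14:53949736-53958761, minus strand), a BMP branch ligand, was rare, with 19 to 39 counts per fresh library. It measured 2.20, 1.24 and 1.79 CPM in fresh medium, 2.99, 2.96 and 3.51 CPM in boiled medium and 3.08, 2.47 and 3.50 CPM in the small fraction, and these groups did not overlap with fresh medium. The large fraction was lowest at 1.52, 1.31 and 1.80 CPM, within the range of fresh medium. BMP4 was 0.85 ± 0.27 higher in boiled medium (adjusted p = 0.0135) and 0.78 ± 0.27 higher in the small fraction (adjusted p = 0.0156) than in fresh medium. These calls depended on single libraries: without fresh library 2 they were lost (adjusted p = 0.0922 and 0.0986), as they were without boiled library 3 (0.0631) or small fraction library 3 (0.0762). In both of those groups ID3 was lower than in fresh medium. Against senescent medium BMP4 was not called in boiled medium (adjusted p = 0.0641) or the small fraction (0.0734), but was without senescent library 2 (0.0375 and 0.0366). Pre-treatment with senescent medium against fresh medium was likewise not called for BMP4 (adjusted p = 0.146), but was without pre-treated senescent library 1 (0.0444).

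**Figure D4:**
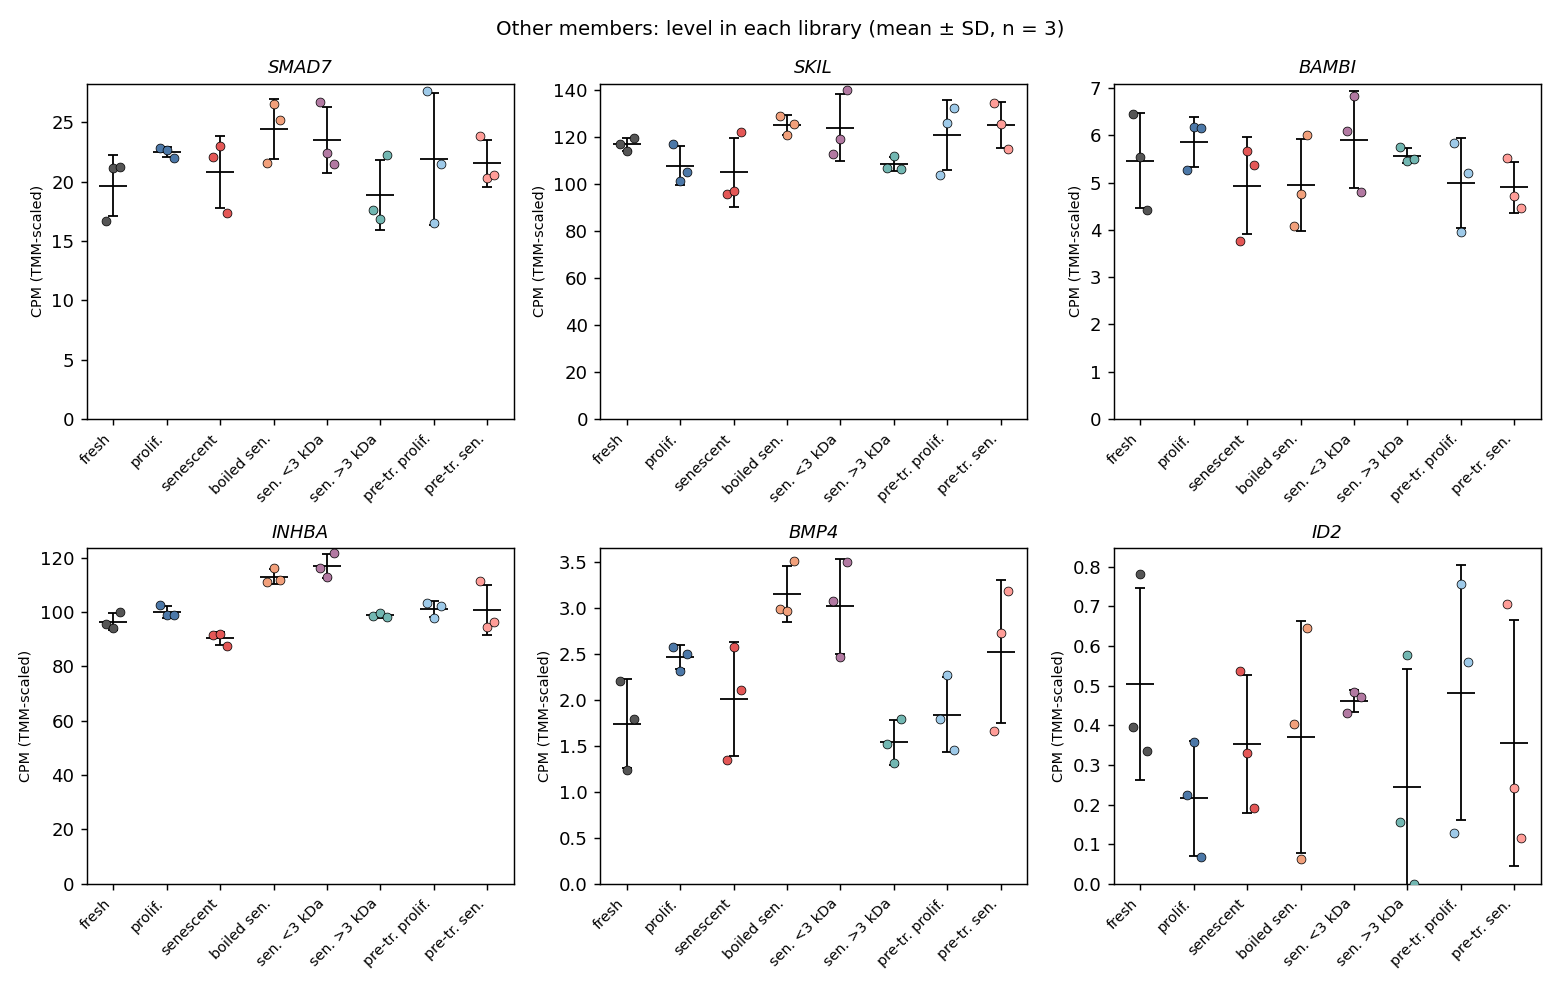
SMAD7, SKIL, BAMBI, INHBA, BMP4 and ID2 in TMM-scaled CPM (vertical axes, starting at 0) in each library by medium; points are libraries, bars are the mean ± SD of 3. INHBA stands at 111 to 122 in boiled medium and the small fraction against 94.1 to 99.9 in fresh medium, and SKIL in senescent medium spans 96.0 to 122.

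Of 96 other genes of the pathway, grouped by role, 82 were measured. In proliferative against fresh medium 44 of the 82 were called (27 higher and 17 lower), in senescent against fresh 38 (21 and 17), in the small fraction 42 (26 and 16) and in the large fraction 38 (26 and 12). As shares of the list these were 53.7%, 46.3%, 51.2% and 46.3%, each above the share of all genes given earlier, and the genes called moved in both directions. No test of the lists was made. Between the pre-treated groups 0 of 82 were called.

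The ligand list had 15 measured genes and included BMP1, a protease despite its name. Of these, 7 were called in proliferative against fresh medium, 5 higher and 2 lower. TGFB1 rose by 0.85 ± 0.04 (from 230 to 414 CPM), and the inhibin subunit gene INHA rose by 1.64 ± 0.36 at a low level (from 0.682 to 2.17 CPM). TGFB1 was called higher in all 7 media than in fresh medium, with boiled medium the lowest of them (0.33 ± 0.04) and the large fraction next to proliferative medium (0.65 ± 0.04). Among 14 receptors, ACVRL1, a type I receptor best known in endothelium, rose in proliferative medium (1.52 ± 0.14), senescent medium (1.37 ± 0.15) and the small fraction (1.71 ± 0.14). The rise was not particular to these media, as its group means were 4.22 CPM in fresh medium and 7.64 to 13.9 CPM in the other 7. Summed endothelial markers were also higher in every other group than in fresh medium, as given above, and their part in the ACVRL1 result was not tested. TGFBR2, the TGF-beta type II receptor, rose by 0.49 ± 0.05 in proliferative and by 0.74 ± 0.05 in boiled medium. Its group means were 85.7 CPM in fresh medium and 107 to 144 CPM in the other media.

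Of the 6 signal-carrying SMADs, 3 were called in proliferative against fresh medium. SMAD3, of the TGF-beta branch, was higher (0.39 ± 0.04), while SMAD1, of the BMP branch, and the shared SMAD4 were lower (-0.38 ± 0.13 and -0.25 ± 0.06). In the large fraction SMAD3 was the only one called (0.79 ± 0.04). A further list held 12 measured genes, secreted antagonists together with the latent TGF-beta binding proteins LTBP1 to LTBP4. Of these, 5 were higher and 1 lower in proliferative than in fresh medium, 6 and 1 in the large fraction, and 2 and 3 in senescent medium. GREM1, a secreted BMP inhibitor, was 1.62 ± 0.26 higher in proliferative medium, 1.84 ± 0.26 in senescent medium, 1.17 ± 0.27 in the small fraction and 2.21 ± 0.25 in the large fraction, all against fresh medium. Its level was low, with group means from 0.903 CPM in fresh medium to 4.21 CPM in the large fraction. Between the fractions GREM1 was lower in the small one (-1.04 ± 0.22, adjusted p = 0.000204), where ID1, ID3 and SMAD6 were higher. CHRD (chordin), another BMP-binding antagonist, was instead higher in the small than in the large fraction (0.76 ± 0.13).

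Inhibitors acting inside the cell gave 4 of 11 higher and 2 lower in proliferative against fresh medium. PMEPA1, a TGF-beta-induced protein that sequesters SMAD2 and SMAD3, rose by 0.80 ± 0.06 there, by 0.37 ± 0.06 in senescent medium and by 0.64 ± 0.06 in the large fraction. Its group means were 74.9 CPM in fresh medium, 74.7 in the small fraction and 135 in boiled medium, the highest. Pre-treatment with proliferative or senescent medium gave 131 and 127 CPM. NEDD4L, a ubiquitin ligase for SMAD proteins, rose by 0.48 ± 0.09 in proliferative medium, 0.49 ± 0.09 in senescent medium and 0.53 ± 0.08 in the large fraction. Its group means were 23.2 CPM in fresh medium and 25.8 to 33.5 CPM in the other media. Neither SMAD7 nor BAMBI was called against fresh medium in any group.

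Of 19 measured targets, 7 were higher and 6 lower in proliferative, 6 and 6 in senescent, and 10 and 2 in boiled medium against fresh medium. FN1 (fibronectin), a TGF-beta target, rose by 1.36 ± 0.03 in proliferative medium. The homeobox gene DLX2 fell by 1.31 ± 0.15 in proliferative and by 1.18 ± 0.15 in senescent medium. TGFBI, named for its induction by TGF-beta, fell by 1.05 ± 0.03 in senescent against fresh medium and was 1.40 ± 0.03 higher in boiled than in intact senescent medium. ATOH8, a BMP target, fell by 1.06 ± 0.30 in the large fraction against fresh medium and was 1.38 ± 0.29 higher in the small than in the large fraction, as SMAD6 was. ATOH8 was rare, at 2.93 CPM in fresh medium, 1.39 in the large fraction and 3.66 in the small fraction. Of the 5 measured basic helix-loop-helix genes in the partner list, HES1 was lower in proliferative (-0.72 ± 0.09), senescent (-0.84 ± 0.09) and large fraction (-0.33 ± 0.08) medium and higher after pre-treatment with proliferative (0.25 ± 0.08) or senescent medium (0.30 ± 0.08).

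**Figure D5:**
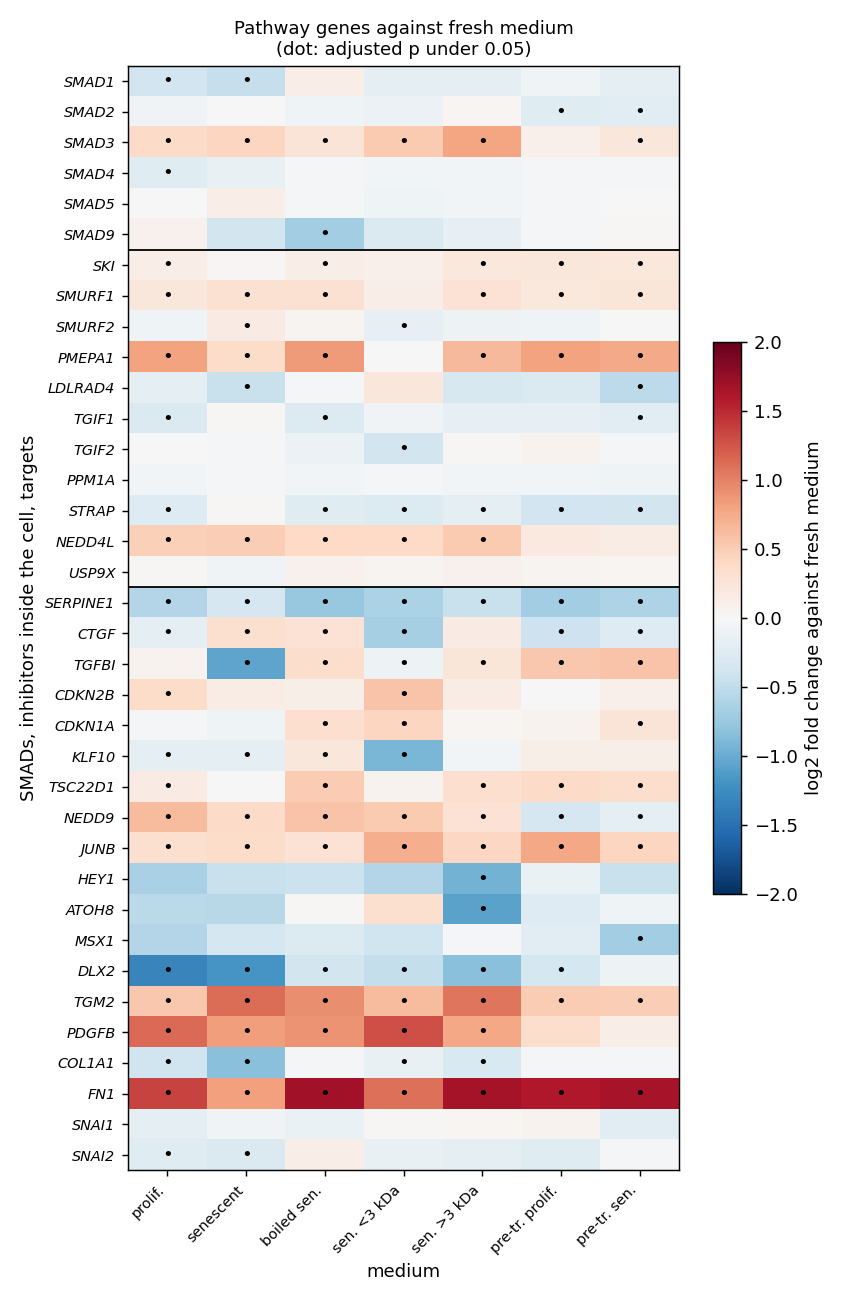
Log2 fold change against fresh medium (colour) of pathway SMADs, inhibitors inside the cell and targets (rows) in 7 media (columns); dots mark an adjusted p under 0.05. FN1 is higher in every column (1.36 in proliferative medium) and DLX2 is lowest in proliferative (-1.31) and senescent medium (-1.18).

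Likeness of pattern was measured as Pearson's r over the 8 group means of log2 CPM, which all come from the same 24 libraries, so these values are descriptions. Among the members r was 0.90 for ID3 and SMAD6, 0.76 for ID1 and SMAD6 and 0.71 for ID1 and ID3. It was 0.95 for SMAD7 and BMP4, although all neighbouring groups of both genes overlapped. Even ID2, with at most 14 counts per library, reached 0.887 with ID1, 0.875 with SMAD6 and 0.806 with ID3. Among 11967 genes with a mean of at least 5 CPM, the genes most like ID1 were DNAH14 (0.936), ACD (0.923), INTS10 (0.913), KLHL8 (0.911) and MFAP3L (0.911). For INHBA they were the long noncoding RNA NORAD (0.982), ADCY1 (0.977), ITM2B (0.967), ERBB2 (0.967) and FIBCD1 (0.963). For SMAD7, whose group means differed little, they were ZKSCAN4 (0.938), AKR1C1 (0.923), SERPINF1 (0.914), GAS6-DT (0.912) and ORMDL3 (0.905). The members were left out of these rankings beforehand, and the r of 0.948 between SMAD7 and BMP4 was above that of ZKSCAN4.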

How the data were processed

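PolyA RNA was sequenced by the authors in 24 libraries of Ovcar8 cells. The deposited table gives, per the file headers, a raw read count and an FPKM value per gene and library, with a gene length in bases. The deposited FPKM equal the count divided by that length and by 1 constant per library (within a relative 1e-03 for all genes with at least 100 counts), and the constants were 0.965 to 1.04 times the library totals. Per the submitters' processing notes, STAR 2.6.1, DESeq2 (version given as 2) and GRCh38 were used, with no role stated for each. For the read counter and the strand setting, the sources used here give nothing. Counts were tested with edgeR 4.0.16 in R 4.3.3 (robust quasi-likelihood fit, TMM factors of 0.957 to 1.03, filterByExpr, 1 mean per group, 16 residual degrees of freedom), two-sided, with Benjamini-Hochberg adjustment over 19210 genes in each comparison. Standard errors were derived from the fold change and its F statistic, so they are approximate. The script was tested on simulated data.

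Alternatives were DESeq2 1.42.0, other scaling, no filter on low counts, only the groups compared, the replicate number as a block, limma 3.58.1 on log2(FPKM + 0.1) and log2(FPKM + 1), and leaving out each library. Replicate pairs differed by more than counting noise (chi-square over degrees of freedom of 1.64 to 8.67). The members and gene lists were chosen with earlier results of these data known. Named genes are the members, up to 4 called genes per pathway list with the largest change in a comparison described, further comparisons of a gene so named, and the 5 genes most like ID1, SMAD7 and INHBA. Promoter sequences and starts came from RefSeq.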

Additional observations from a re-analysis of the deposited data

Results flagged for a closer look

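The effect of senescent against proliferative medium on ID1 differed between direct exposure and pre-treatment. On direct exposure ID1 was 0.59 ± 0.06 (log2, SE) higher in senescent medium, after pre-treatment it was 0.08 ± 0.06 higher, and the interaction was -0.51 ± 0.08 (edgeR adjusted p = 7.18e-06, 3 libraries per group). The interaction ran from -0.55 to -0.44 over 32 alternatives and was called in all 32, with a highest adjusted p of 0.00032.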

How the results depend on the processing

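No called member changed direction under any alternative run. For 46 calls of a member, 361 of 368 values under 8 other settings and 1082 of 1104 values with a library left out stayed past the threshold, and the others fell short of it. With library totals in place of TMM factors, members called rose from 3 to 5 for boiled and for small fraction against senescent medium (SKIL and BMP4 added) and from 1 to 2 for the interaction (INHBA added). INHBA was also added for senescent against fresh medium (-0.17, adjusted p = 0.0112) and for large fraction against senescent medium (0.16, adjusted p = 0.0303). The ID1 call of pre-treated against direct senescent medium was lost (adjusted p = 0.385). The median of all genes for small fraction against senescent medium moved from 0.025 to 0.113. With no filter on low counts, members called for senescent against proliferative medium fell from 2 to 1, while 7 calls of SMAD7 or SKIL were added over all comparisons (small against large fraction: 7 in place of 5) and 3 of other members lost. Leaving out a library gave 1 to 2 there, the lower count without proliferative library 1 or 2, and 2 to 5 beside 4 for pre-treated against direct senescent medium, 2 without pre-treated senescent library 1. The causes were not tested. On log2(FPKM + 1) the changes of SMAD6 and BMP4 were smaller (SMAD6 in the large fraction against fresh medium: -0.83 beside -1.52), as the pseudocount makes them for genes near 1 FPKM. Replicate numbers did not pair the libraries: correlations of same-numbered deviations had a median of -0.02, 19 of 84 were over 0.1, and 6 of 24 libraries correlated best with their own number. With the replicate block the count of members called for pre-treated against direct senescent medium was 5 in place of 4 (SKIL added, adjusted p = 0.0436), and no other count changed. Depth limits ID2, ID4 and BMP4, which had at most 14, 18 and 76 counts per library, and with 3 libraries a group some calls above rest on 1 library.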
